A study of Mus musculus with 6 samples.

Results

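Transcripts of 35 mouse genes that make cholesterol and fatty acids, or that control and carry sterols, were followed across CRISPR guides in stem-like medulloblastoma cells. The genes were taken by symbol from a list of pathway members, and all 35 were found among the 24063 gene symbols in the deposited count files. Of these, 34 had counts and entered the test, as did 13220 genes in all, and the sterol exporter gene Abcg1 had 0 counts in every library. Medulloblastoma is a cerebellar tumour. All groups shared the genotype Math1-Cre; SmoM2, in which a Cre recombinase driven from the Math1 (Atoh1) gene switches on an activated Smoothened, which passes on the Hedgehog signal. The control group carried sgGal4-4, a guide named for a yeast protein, and is labelled WT. The other groups carried sgMiat-6 or sgMiat-96, guides named for Miat, a long noncoding RNA, and are labelled Miat knockdown. There were 6 libraries, 2 per group. The labels give the tissue as cerebellum, and they do not say whether the 2 libraries of a group came from separate cultures, so p-values here measure no more than the spread among these libraries, which may be technical.

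Cholesterol is built from acetyl-CoA through mevalonate, isoprenoid diphosphates, squalene and lanosterol, and fatty acids are built from the same acetyl-CoA by a carboxylase and a synthase, then desaturated and elongated. Both branches are controlled by the SREBP transcription factors, which are held in the endoplasmic reticulum by Scap and the Insig proteins when sterols are plentiful and reach the nucleus when sterols are scarce. Cells of the brain make their own cholesterol because little crosses from the blood, and in Hedgehog-driven cells sterols also bind and regulate Smoothened.

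SREBPs bind sterol response elements in promoters, often beside sites for the factors NF-Y and Sp1, so these letters were looked for in the promoters of the members. RefSeq promoter windows on GRCm38.p6 reach from 250 bases before a gene's start to 50 bases after it, and were at hand for 27 of the 35 members, some with several starts, 35 windows in all. Windows for Fdps, Fdft1, Sqle, Stard4, Abcg1, Scd1, Scd2 and Fads1 were not used here. The sterol response element TCACNCCAC, searched on both strands like the others, was found in 1 member window, that of Hmgcs1, which is 2.86% of member windows against 1.24% of all 32851 windows. The NF-Y box CCAAT was in 22 of 35 member windows (62.9%, against 37.4% of all windows), and the Sp1 box GGGCGG was in 26 of 35 (74.3%, against 35.7%). A match is a description of the letters and not a binding site. Elements with other letters, or outside these windows, were not searched, so a member without a match may still hold an element. The 250 bases before the start are printed for Hmgcs1, the only searched member with a match to TCACNCCAC. They are also printed for Mvk and Tm7sf2, the genes of cholesterol synthesis with the largest rises in the libraries of the Miat guides. The last stretch is that of Abca1, the member with the largest fall. Capitals mark matches to any of the 3 motifs on either strand, and 0 bases lie in more than 1 match.
Hmgcs1 (chr13:119690101-119690350, plus strand): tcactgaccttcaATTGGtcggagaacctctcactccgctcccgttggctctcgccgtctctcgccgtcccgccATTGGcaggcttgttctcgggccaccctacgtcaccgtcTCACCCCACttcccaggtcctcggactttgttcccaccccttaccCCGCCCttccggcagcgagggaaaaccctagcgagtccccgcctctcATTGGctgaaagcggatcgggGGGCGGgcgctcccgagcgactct
Mvk (chr5:114444019-114444268, plus strand): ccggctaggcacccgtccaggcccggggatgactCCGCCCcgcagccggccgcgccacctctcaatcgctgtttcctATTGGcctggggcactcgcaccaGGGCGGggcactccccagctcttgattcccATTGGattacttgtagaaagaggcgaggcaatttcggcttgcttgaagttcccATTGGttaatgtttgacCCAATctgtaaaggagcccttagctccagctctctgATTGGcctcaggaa
Tm7sf2 (chr19:6067851-6068100, minus strand): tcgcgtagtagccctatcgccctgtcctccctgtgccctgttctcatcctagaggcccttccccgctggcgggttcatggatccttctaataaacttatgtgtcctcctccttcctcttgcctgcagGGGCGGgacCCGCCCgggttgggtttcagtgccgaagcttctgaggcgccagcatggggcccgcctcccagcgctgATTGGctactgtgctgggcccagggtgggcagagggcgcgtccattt
Abca1 (chr4:53159896-53160145, minus strand): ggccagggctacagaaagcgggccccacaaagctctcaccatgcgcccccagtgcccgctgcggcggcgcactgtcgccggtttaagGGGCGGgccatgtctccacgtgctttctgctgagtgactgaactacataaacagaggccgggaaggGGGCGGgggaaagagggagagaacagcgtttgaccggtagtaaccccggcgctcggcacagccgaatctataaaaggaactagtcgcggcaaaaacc
The Hmgcs1 stretch holds 1 match to TCACNCCAC with 3 NF-Y boxes and 2 Sp1 boxes, and the Mvk stretch holds 5 NF-Y boxes and 2 Sp1 boxes. Tm7sf2 has 1 NF-Y box and 2 Sp1 boxes in this stretch, and Abca1 has 0 NF-Y boxes and 2 Sp1 boxes. Mvk and Hmgcs1, which both hold NF-Y and Sp1 boxes, moved in opposite directions, as given with the mevalonate genes.

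The libraries summed to between 18438891 and 19650274 counts with 1 transcript row kept per gene symbol. Miat itself had 140 and 139 counts with sgGal4-4 and 0 counts in each of the 4 libraries of the Miat guides. Levels are CPM, counts scaled to library size with TMM factors that correct for library composition. Replicates of every group differed by more than sampling noise. Atoh1, the gene that drives the Cre, had 0 counts in all libraries, and of 9 tested markers of granule progenitors and medulloblastoma 4 rose and 3 fell. Markers of other cell types moved with the guides. The astrocyte markers, 5 of 6 tested lower and 1 (S100b) higher, summed to between 2541 and 2578 CPM with sgGal4-4. The sum was between 1032 and 1094 with sgMiat-6 and between 1029 and 1071 with sgMiat-96, and the astrocyte marker Gja1 was at 0 in all libraries. Aldoc fell with sgMiat-6 (log2 change -0.76 ± 0.11, SE) and not with sgMiat-96 (-0.04 ± 0.11). Most of the control sum was Slc1a3, at 1942 and 1935 CPM with sgGal4-4, 699 and 596 with sgMiat-6, and 459 and 458 with sgMiat-96. Oligodendrocyte markers, 1 of 2 tested lower, summed to between 40.0 and 40.3 CPM, between 3.07 and 4.24 and between 5.51 and 6.87 in the same order, almost wholly through Cnp, with Mag and Cldn11 at 0. Markers of fibroblasts summed to at most 9.84 CPM in any library, and those of microglia, endothelium and neurons to at most 2.63, 2.23 and 0.861. The part of these shifts in the lipid genes was not tested, and in bulk RNA fewer cells of a type cannot be told apart from less RNA per cell.

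The first comparison set the libraries of both Miat guides against those of sgGal4-4. Of the 34 tested lipid genes, 11 rose, 15 fell and 8 were not called, where a call is an adjusted p under 0.05 in edgeR's quasi-likelihood test with Benjamini-Hochberg adjustment over all 13220 genes. That is 76.5% of the members, and 66.5% of all tested genes were called in this comparison, 33.1% higher and 33.4% lower, so the count of called members is close to the background and is not a result about the lipid genes. Their median change was -0.00 on the log2 scale and that of all genes was 0.00. Under TMM scaling, mevalonate genes were mostly higher (5 of 7 rose, 1 fell). Fatty acid synthesis and desaturation genes were mostly lower (7 of 9 fell, 1 rose), and the genes between squalene and cholesterol were split (3 rose and 3 fell of 11). These step counts changed with the length trend taken out, as described with the lengths of the transcripts. Mvd, Fasn, Elovl6 and Hsd17b7 were then not called, and Acly, Cyp51, Dhcr7 and Fdft1 were called higher. The 4 Miat libraries lay wholly above or wholly below both controls for 24 of the 34 members (70.6%), against 67.0% of all genes tested, 10 of them above and 14 below.

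**Figure D1:**
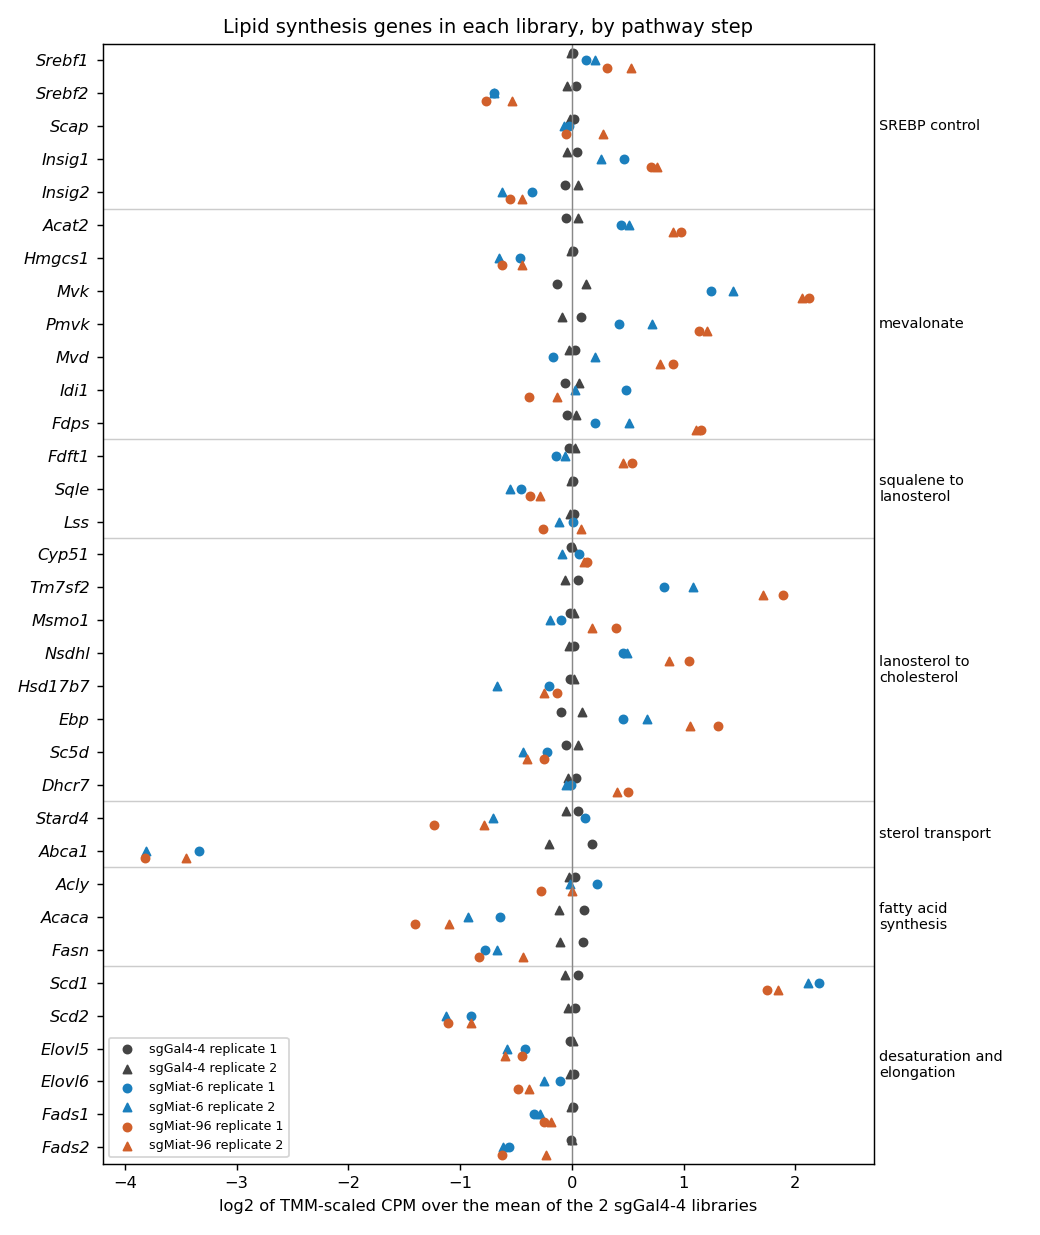
Level of each of the 34 tested lipid genes in each of the 6 libraries, as log2 of TMM-scaled CPM over the mean of the 2 sgGal4-4 libraries (x axis), with genes in pathway order (y axis). Grey, blue and orange stand for sgGal4-4, sgMiat-6 and sgMiat-96, and circles and triangles for replicates 1 and 2. Mvk, Tm7sf2 and Scd1 lie furthest to the right, and Abca1 lies furthest to the left, near -3.59.

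Against the same controls taken guide by guide, 9 members rose and 13 fell with sgMiat-6 (64.7% called, against 53.0% of all genes, 26.9% higher and 26.1% lower), and 14 rose and 13 fell with sgMiat-96 (79.4%, against 68.2% of all genes, 34.0% higher and 34.2% lower). With each guide taken alone, 9 members were called higher by both comparisons and 11 lower. The share of all tested genes called alike by both comparisons was not counted, so these numbers are not a result about the lipid genes. Srebf1, Mvd, Fdft1, Msmo1 and Dhcr7 were called higher, and Stard4 and Elovl6 lower, with sgMiat-96 only. Hsd17b7 and Fads1 were called lower with sgMiat-6 only. The 2 guide comparisons share their control libraries. Without sgGal4-4 replicate 1 the rises with sgMiat-6 numbered 5. With total counts alone as the scale, the median of all genes moved to -0.13 on the log2 scale for both guides and to -0.20 for sgMiat-96, and the calls of all genes with sgMiat-96 split into 3535 higher and 5549 lower in place of 4495 and 4516. All changes are given relative to TMM scaling.

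Among the genes that control SREBPs, the transcripts of the paired factors and of the paired Insig proteins shifted in opposite directions with both guides. With sgMiat-6 alone the Srebf1 rise was not called (log2 change 0.16 ± 0.12, edgeR adjusted p = 0.26). Srebf2, which encodes the SREBP that mainly drives cholesterol synthesis, had 731 and 692 CPM with sgGal4-4, 440.5 and 438 with sgMiat-6, and 417 and 492 with sgMiat-96. All 4 Miat libraries were below both controls, and the guides overlapped each other. Srebf2 fell by 0.67 ± 0.09 on the log2 scale (SE; edgeR adjusted p = 2.66e-05). Srebf1, which encodes the SREBP forms tied more to fatty acid genes, had 47.3 and 46.7 CPM with sgGal4-4, 51.2 and 54.2 with sgMiat-6, and 58.4 and 67.6 with sgMiat-96. Its Miat libraries were all above the controls by a small margin, highest with sgMiat-96. Srebf1 rose by 0.29 ± 0.10 (edgeR adjusted p = 0.0236), and the call was lost without sgGal4-4 replicate 1 (adjusted p = 0.15), without sgGal4-4 replicate 2 (adjusted p = 0.182), without sgMiat-96 replicate 2 (adjusted p = 0.0543) and with library sizes alone as the scale (adjusted p = 0.193).

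Insig1, the Insig whose own transcription is raised by SREBPs, had 262 and 246 CPM with sgGal4-4, 350.4 and 304 with sgMiat-6, and 415 and 432 with sgMiat-96. The groups did not overlap, with sgMiat-6 between the control and sgMiat-96. Insig1 rose by 0.55 ± 0.09 on the log2 scale (edgeR adjusted p = 0.000173). Insig2, its less abundant relative, had 28.4 and 30.9 CPM with sgGal4-4, 23.2 and 19.3 with sgMiat-6, and 20.2 and 21.8 with sgMiat-96, lower in every Miat library. It fell by 0.49 ± 0.12 (edgeR adjusted p = 0.00292, and adjusted p = 0.0543 without sgGal4-4 replicate 2). Scap, the escort that carries SREBPs to the Golgi, lay between 106 and 136 CPM in all libraries and was not called (log2 change 0.04 ± 0.10, edgeR adjusted p = 0.76).

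These pairs were also compared as shares of their summed level per kilobase of transcript. That scale divides by transcript length but leaves in the length trend of each library. Srebf1 made up 6.43% and 6.69% of the Srebf pair with sgGal4-4, 11.0% and 11.6% with sgMiat-6, and 13.0% and 12.7% with sgMiat-96. Srebf2 thus stayed the more abundant factor in every library. The Insig1 share of the Insig pair was 89.7% ± 0.941, 94.0% ± 0.174 and 95.4% ± 0.112 for sgGal4-4, sgMiat-6 and sgMiat-96 (SD, n = 2), and no groups overlapped. The shares of the stearoyl-CoA desaturases are described with the fatty acid genes.

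**Figure D2:**
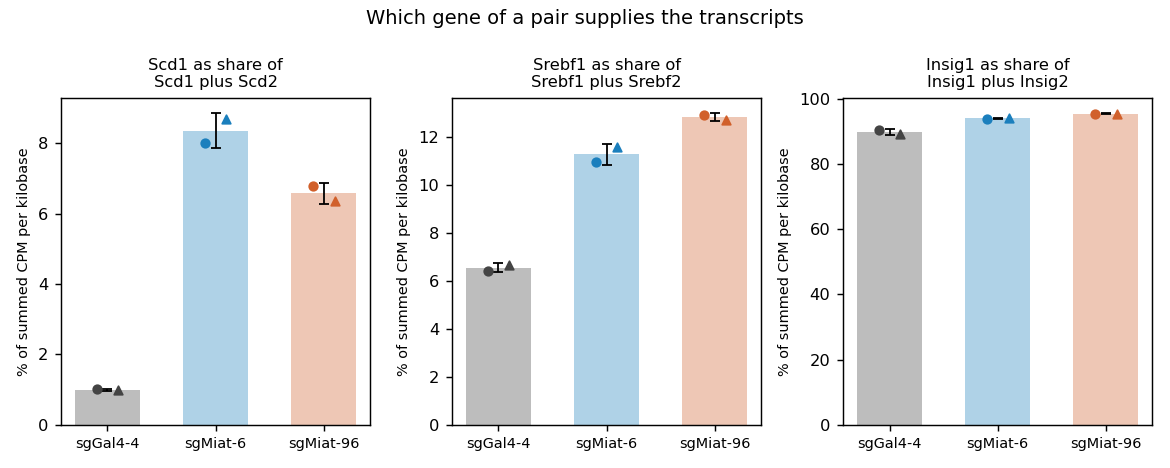
Share of the summed CPM per kilobase (y axes, percent) that came from Scd1, Srebf1 and Insig1 within their pairs, by guide (x axes). Bars are means, error bars are the SD over 2 libraries, and points are the libraries. The mean Scd1 share was 8.35% in sgMiat-6 libraries and 6.57% in sgMiat-96 libraries, against 0.996% in the control.

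In the mevalonate branch 5 of 7 genes rose, Hmgcs1 fell and Idi1 was not called, and the median change was 0.71 on the log2 scale. Mvk, the mevalonate kinase gene on chromosome 5 from 114444269 to 114460591 (plus strand, GRCm38), had 24.8 and 29.6 CPM with sgGal4-4, 64.5 and 74.2 with sgMiat-6, and 118 and 114 with sgMiat-96. The 3 groups were separate, and the lowest Miat library was above both controls. Group means in that order were 27.2 ± 3.40, 69.3 ± 6.86 and 116 ± 3.40 CPM (SD, n = 2). Mvk was 3.29-fold higher with both guides, a log2 change of 1.72 ± 0.12 (SE; edgeR adjusted p = 5.53e-08). Pmvk encodes the next kinase, and had 27.1 and 24.2 CPM with sgGal4-4, 34.5 and 42.1 with sgMiat-6, and 56.7 and 59.6 with sgMiat-96. It followed the same order of groups and rose by 0.88 ± 0.12 (edgeR adjusted p = 2.85e-05). Mvd, the decarboxylase that makes isopentenyl diphosphate, had 34.7 and 33.4 CPM with sgGal4-4, 30.3 and 39.2 with sgMiat-6, and 63.8 and 58.7 with sgMiat-96. Its sgMiat-6 libraries lay on both sides of the controls, and its sgMiat-96 libraries lay above them. Mvd was called over both guides (log2 change 0.44 ± 0.12, edgeR adjusted p = 0.00576), with 0.03 ± 0.14 for sgMiat-6 and 0.85 ± 0.14 for sgMiat-96, and the call was lost without sgGal4-4 replicate 2 (adjusted p = 0.0558).

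Fdps, which joins isoprenoid units into farnesyl diphosphate, had 227 and 240.3 CPM with sgGal4-4, 269.6 and 333 with sgMiat-6, and 519.6 and 504 with sgMiat-96. Here sgMiat-96 stood well above sgMiat-6, which stood above the controls. Fdps rose by 0.75 ± 0.10 on the log2 scale (edgeR adjusted p = 2.84e-05). Of the 50-base stretches of its transcript, 86.4% also occur in transcripts of other genes, most in the overlapping gene model Gm43738, so its reads cannot be assigned to it alone. Acat2, the acetyl-CoA acetyltransferase of the first step, had 86.1 and 92.7 CPM with sgGal4-4, 121 and 127 with sgMiat-6, and 176 and 167 with sgMiat-96, and rose by 0.71 ± 0.09 (edgeR adjusted p = 1.89e-05). It shares 45.9% of its 50-base stretches with other genes, most with Acat3, which rose by 0.64 ± 0.12, and the counts of this pair are uncertain in the same way.

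Hmgcs1, which makes HMG-CoA and whose promoter window held the match to TCACNCCAC, went against the kinases. It had 1015 and 1005 CPM with sgGal4-4, 733 and 643 with sgMiat-6, and 657 and 744 with sgMiat-96. Every Miat library was below both controls, with the guides intermixed, and Hmgcs1 fell by 0.54 ± 0.09 (edgeR adjusted p = 0.000181). Idi1, the isomerase of isopentenyl diphosphate, had 76.4 and 83.3 CPM with sgGal4-4, 111 and 81.3 with sgMiat-6, and 61.1 and 73.0 with sgMiat-96. The sgMiat-6 libraries overlapped the control range and both sgMiat-96 libraries lay below it, and the log2 change over both guides was 0.01 ± 0.13 (edgeR adjusted p = 0.955). Idi1 shares 21.3% of its 50-base stretches with other genes, most with Gm13502.

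From squalene to lanosterol, 1 of 3 genes fell and 0 rose with both guides. Sqle, the squalene epoxidase gene and a control point of the sterol branch, had 556 and 547 CPM with sgGal4-4, 403 and 376 with sgMiat-6, and 424 and 454 with sgMiat-96. All Miat libraries were lower than the controls, and Sqle fell by 0.41 ± 0.08 (edgeR adjusted p = 0.00075). Fdft1, which commits farnesyl diphosphate to sterols as squalene synthase, had 173 and 179 CPM with sgGal4-4, 159 and 169 with sgMiat-6, and 256 and 242 with sgMiat-96. Only the sgMiat-96 libraries lay above the controls, and Fdft1 was called with sgMiat-96 (log2 change 0.50 ± 0.10, edgeR adjusted p = 0.00061) but not with sgMiat-6 (-0.10 ± 0.10, adjusted p = 0.403) or both guides (adjusted p = 0.059). Exons of Ctsb on the opposite strand overlap 18.3% of the exonic bases of Fdft1, Ctsb rose by 0.47 ± 0.09, and whether strand was kept is not stated in the labels. Lss, which closes the sterol rings, lay between 33.1 and 41.7 CPM in all libraries and was not called (log2 change -0.07 ± 0.12, edgeR adjusted p = 0.632).

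Of the 8 members that turn lanosterol into cholesterol, 3 rose, 2 fell and 3 were not called with both guides. Tm7sf2, a sterol reductase gene on chromosome 19 from 6062821 to 6068373 (minus strand), had 15.4 and 14.2 CPM with sgGal4-4, 26.3 and 31.5 with sgMiat-6, and 54.9 and 48.6 with sgMiat-96. The groups were separate and in the order control, sgMiat-6, sgMiat-96. Tm7sf2 was 2.61-fold higher, a log2 change of 1.38 ± 0.13 (edgeR adjusted p = 9.07e-07). Its exons share 12.1% of their bases with Vps51 on the same strand, which was not called (log2 change 0.09 ± 0.12, edgeR adjusted p = 0.559). Ebp, the sterol isomerase gene on the X chromosome, had 15.2 and 17.2 CPM with sgGal4-4, 22.2 and 25.9 with sgMiat-6, and 40.2 and 33.8 with sgMiat-96, and rose by 0.88 ± 0.13 (edgeR adjusted p = 6.79e-05). Nsdhl, also on the X chromosome, encodes the dehydrogenase that removes methyl groups from the sterol ring. It had 43.9 and 42.6 CPM with sgGal4-4, 59.5 and 60.7 with sgMiat-6, and 89.4 and 79.0 with sgMiat-96 and rose by 0.72 ± 0.10 (edgeR adjusted p = 4.08e-05). Ebp and Nsdhl showed the same order of groups as Tm7sf2, with no overlap.

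Sc5d, a sterol desaturase gene, had 100.3 and 108 CPM with sgGal4-4, 89.5 and 77.0 with sgMiat-6, and 87.6 and 78.9 with sgMiat-96. It fell by 0.32 ± 0.10 (edgeR adjusted p = 0.012), and the call was lost without sgGal4-4 replicate 2 (adjusted p = 0.165). Hsd17b7, the reductase that works beside Nsdhl, fell by 0.31 ± 0.12 (edgeR adjusted p = 0.042). That call was kept in 1 of 6 settings that left out a library, without sgMiat-6 replicate 1, and the other 5 gave adjusted p-values from 0.0565 to 0.157. Dhcr7, the reductase of the last step of the pathway from lathosterol, had 112 and 107 CPM with sgGal4-4, 109 and 105 with sgMiat-6, and 154 and 144 with sgMiat-96. The sgMiat-6 libraries lay within or just below the control range and the sgMiat-96 libraries above it, a log2 change of -0.03 ± 0.10 with sgMiat-6 and 0.45 ± 0.10 with sgMiat-96 (edgeR adjusted p = 0.818 and 0.0016). Msmo1, the sterol methyl oxidase gene, was not called with both guides (0.07 ± 0.09, adjusted p = 0.496), with log2 changes of -0.14 ± 0.11 for sgMiat-6 and 0.29 ± 0.11 for sgMiat-96, and neither was Cyp51, the lanosterol demethylase gene (0.05 ± 0.09, adjusted p = 0.6), which lay between 541 and 632 CPM in all libraries.

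The sterol transport genes held the largest fall of the set. Abca1, which exports cholesterol to apolipoproteins, lies on chromosome 4 from 53030787 to 53159895 (minus strand). It had 189 and 145 CPM with sgGal4-4, 16.5 and 11.9 with sgMiat-6, and 11.9 and 15.2 with sgMiat-96. Both controls were far above every Miat library, and the values of the 2 guides overlapped. Means were 167 ± 30.9, 14.2 ± 3.23 and 13.5 ± 2.39 CPM for sgGal4-4, sgMiat-6 and sgMiat-96 (SD, n = 2). On the log2 scale Abca1 fell by 3.59 ± 0.14 (edgeR adjusted p = 3.81e-10). With the length trend taken out, as described with the lengths of the transcripts, the change was -2.86. Stard4, which carries sterols between membranes inside the cell, had 69.0 and 63.9 CPM with sgGal4-4, 72.1 and 40.8 with sgMiat-6, and 28.3 and 38.4 with sgMiat-96. Replicate 1 of sgMiat-6 lay above the controls and the other 3 Miat libraries below them. Stard4 fell by 0.61 ± 0.18 over both guides (edgeR adjusted p = 0.00898), and was not called without sgMiat-96 replicate 1 (adjusted p = 0.0588) or with DESeq2 (adjusted p = 0.082). The astrocyte marker sum, in the controls mostly Slc1a3, was also lower in the Miat libraries, at most 1094 CPM against at least 2541 in the controls. The part of this shift in the lower Abca1 and Stard4 counts was not tested.

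Of the 3 genes of fatty acid synthesis, 2 fell and Acly was not called. Acaca, the acetyl-CoA carboxylase that makes malonyl-CoA, had 139 and 119 CPM with sgGal4-4, 83.0 and 68.0 with sgMiat-6, and 48.8 and 60.3 with sgMiat-96. The 3 groups were separate and in falling order from the control through sgMiat-6 to sgMiat-96. Acaca fell by 1.01 ± 0.12 on the log2 scale (edgeR adjusted p = 6.5e-06), and 55.4% of its 50-base stretches also occur in other genes, most in Gm5182. Fasn, the fatty acid synthase, had 652 and 568 CPM with sgGal4-4, 356 and 385 with sgMiat-6, and 343 and 451 with sgMiat-96. The Miat libraries were all below the controls and the guides overlapped, and Fasn fell by 0.67 ± 0.11 (edgeR adjusted p = 0.000143). Its transcript is 9938 bases long, and with the length trend taken out its change was 0.048 (adjusted p = 0.667). In that setting Fasn was higher than the control with sgMiat-96 (0.36, adjusted p = 0.0111), the reverse of its call under TMM scaling (-0.62 ± 0.13). Acaca stayed lower there, at -0.35 (adjusted p = 0.000938), with a transcript of 9032 bases. Acly, which supplies cytosolic acetyl-CoA from citrate to both branches, lay between 289 and 409 CPM (log2 change -0.01 ± 0.10, edgeR adjusted p = 0.924), and was called higher with the length trend taken out (0.22, adjusted p = 0.013).

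Among the 6 genes that desaturate and elongate fatty acids, 5 fell and Scd1 rose. Scd1 and Scd2 encode stearoyl-CoA desaturases, which make monounsaturated fatty acids, and lie close together on chromosome 19, Scd1 from 44394455 to 44407879 and Scd2 from 44293674 to 44306864. Scd1 had 26.6 and 24.5 CPM with sgGal4-4, 118 and 111 with sgMiat-6, and 85.7 and 91.8 with sgMiat-96. Every Miat library was above the controls, and sgMiat-6 lay above sgMiat-96, the order opposite to that of Mvk and Tm7sf2. Means were 25.5 ± 1.49, 114 ± 5.25 and 88.7 ± 4.35 CPM for sgGal4-4, sgMiat-6 and sgMiat-96 (SD, n = 2). Scd1 was 3.94-fold higher with the Miat guides, a log2 change of 1.98 ± 0.11 (edgeR adjusted p = 6.11e-09). Scd2, the form known to predominate in the mouse brain, had 2919 and 2796 CPM with sgGal4-4, 1527 and 1308 with sgMiat-6, and 1327 and 1524 with sgMiat-96. The Miat libraries were all below the controls and the guides were intermixed. Scd2 fell by 1.01 ± 0.10 (edgeR adjusted p = 1.14e-06).

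Per kilobase of transcript, Scd2 was the most abundant of the 34 members with sgGal4-4, at 524 CPM per kilobase, and Scd1 the least abundant, at 5.28. Scd1 reached 23.6 CPM per kilobase with sgMiat-6 and 18.3 with sgMiat-96, while Scd2 was at 260.0 and 262. The Scd1 share of the pair was 1.02% and 0.977% in the control libraries, 8.01% and 8.70% with sgMiat-6, and 6.78% and 6.36% with sgMiat-96. Scd2 thus remained the more abundant of the pair in every library. The Scd1 transcript shares 4.66% of its 50-base stretches with other genes, most with Scd3, and that of Scd2 shares 4.01%, most with Scd1.

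The remaining genes of this step fell in the comparison of both guides with the control. Elovl5, an elongase of polyunsaturated fatty acids, had 294 and 299 CPM with sgGal4-4, 221 and 198 with sgMiat-6, and 217 and 196 with sgMiat-96, and fell by 0.51 ± 0.09 (edgeR adjusted p = 0.000225). Fads2, the desaturase that starts polyunsaturated fatty acid synthesis, had 221 and 223 CPM with sgGal4-4, 150.3 and 145 with sgMiat-6, and 144 and 189 with sgMiat-96. Both genes were lower in every Miat library, and Fads2 fell by 0.50 ± 0.11 (edgeR adjusted p = 0.000939). Its neighbour Fads1, which adds a later unsaturated bond, fell by 0.27 ± 0.08 (edgeR adjusted p = 0.0122), a call lost without either control library (adjusted p = 0.16 and 0.122). Elovl6, an elongase of saturated and monounsaturated fatty acids, fell by 0.30 ± 0.09 (edgeR adjusted p = 0.00907), a call also lost without either control library (adjusted p = 0.122 and 0.0828). With the length trend taken out Elovl6 was at 0.10 (adjusted p = 0.187).

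The members that rose had shorter transcripts, by their median, than those that fell. The median length was 1864 bases for the 11 that rose, from 1190 (Pmvk) to 4837 (Scd1), and 3577 bases for the 15 that fell, from 1508 (Fads2) to 10260 (Abca1). Across the 34 members Spearman's rho between transcript length and log2 change was -0.60, and across all 13220 tested genes it was -0.37, all from the same 6 libraries. The comparison was repeated with the length trend of each library taken out. The members then numbered 15 higher and 12 lower of 34, against 4467 higher and 4204 lower of all 13220 tested genes. Of the 11 rises 10 were kept and Mvd was not called, and of the 15 falls 12 were kept and Fasn, Elovl6 and Hsd17b7 were not called. Acly, Cyp51, Dhcr7, Fdft1 and Scap were called higher in that setting. Mvk was then at 1.42, Tm7sf2 at 1.02 and Scd1 at 2.26 on the log2 scale. Several kept calls became smaller in size. Pmvk moved from 0.88 to 0.45, Fdps from 0.75 to 0.38, Scd2 from -1.01 to -0.66, Srebf2 from -0.67 to -0.42 and Fads1 from -0.27 to -0.15. Fads2 became larger in size, from -0.50 to -0.85, as did Srebf1, from 0.29 to 0.51. Fdps was not called with sgMiat-6 in that setting (0.15, adjusted p = 0.127).

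**Figure D3:**
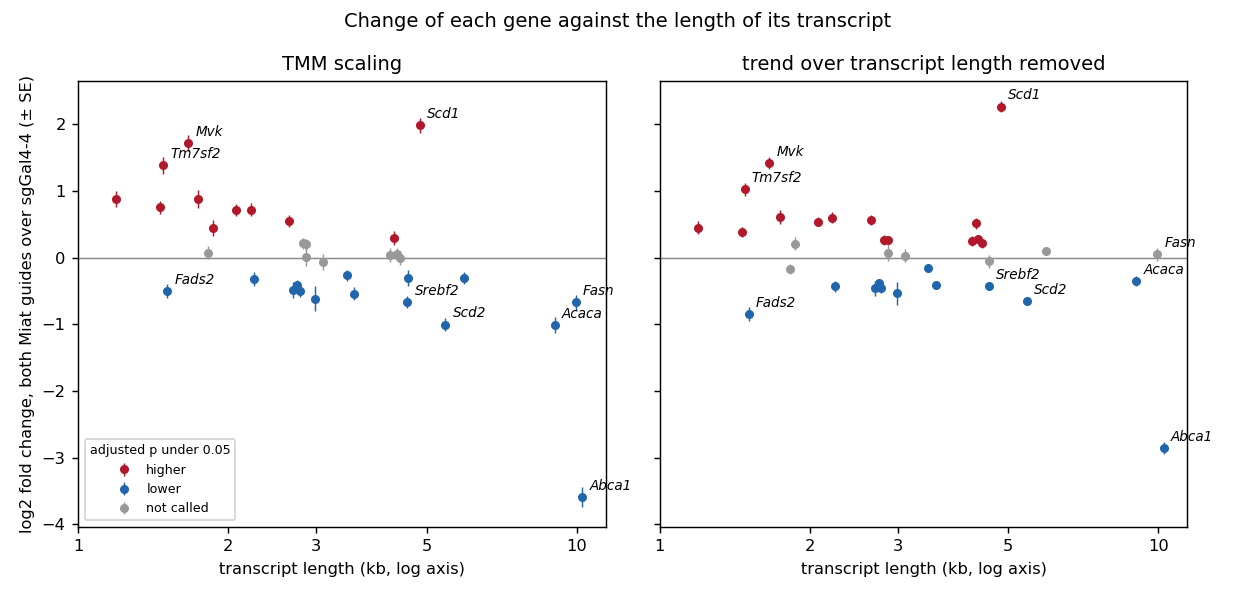
Log2 fold change of both Miat guides over sgGal4-4 (y axis) against transcript length in kilobases (x axis, log scale) for the 34 tested lipid genes, with TMM scaling (left) and with the length trend taken out (right). Error bars are SE, and red, blue and grey mark genes called higher, called lower and not called. Fasn moved from -0.67 to 0.05 and Abca1 from -3.59 to -2.86 between the panels, while Scd1, with a transcript of 4837 bases, is among the genes that rose and Fads2, with 1508, among those that fell.

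The second comparison set sgMiat-96 against sgMiat-6. Of the 34 members 12 were higher with sgMiat-96 and 4 were lower, 47.1% against 36.7% of all tested genes (17.8% higher, 18.8% lower), and the members' median was 0.15 on the log2 scale against 0.01 over all genes. The 2 guides did not overlap for 21 of 34 members (61.8%, against 69.8% of all genes). The higher members lay in the mevalonate branch (5 of 7) and between lanosterol and cholesterol (5 of 8), with Insig1 and Fdft1 beside them. Tm7sf2 differed by 0.84 ± 0.14 (edgeR adjusted p = 0.00116), Mvd by 0.82 ± 0.14 (edgeR adjusted p = 0.00138), Fdps by 0.76 ± 0.11 (edgeR adjusted p = 0.00087) and Mvk by 0.74 ± 0.12 (edgeR adjusted p = 0.00133). In each of these both sgMiat-96 libraries were above both sgMiat-6 libraries.

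The members lower with sgMiat-96 were Stard4, Idi1, Acaca and Scd1, with log2 differences of -0.76 ± 0.22, -0.52 ± 0.15, -0.47 ± 0.14 and -0.36 ± 0.11 (edgeR adjusted p = 0.0165, 0.0161, 0.0207 and 0.0212). Of these 4 calls 0 remained without sgMiat-6 replicate 1, where 2253 genes were called in place of 4850, and 0 remained without sgMiat-96 replicate 1, where 1124 genes were called and 6 members were higher. Spearman's rho between transcript length and this difference was -0.68 over the 34 members and -0.55 over all tested genes. With the length trend taken out, 18 members were higher and 2 lower, and 10 of the 12 higher calls were kept. Over all 13220 tested genes, 1690 were higher and 1503 lower in that setting. With total counts as the scale the calls over all genes split into 1380 higher and 3720 lower, in place of 2359 and 2491, and those of the members into 10 and 6.

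**Figure D4:**
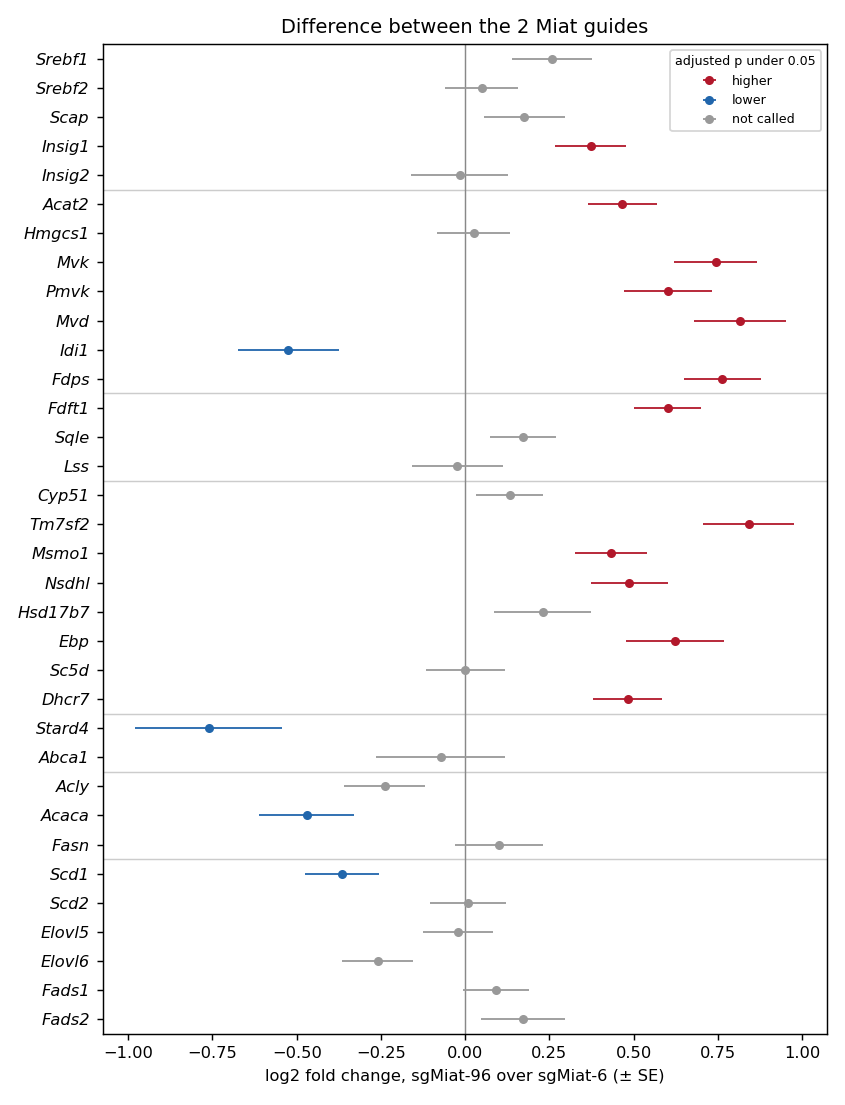
Log2 fold change of sgMiat-96 over sgMiat-6 (x axis) for the 34 tested lipid genes in pathway order (y axis), with SE as error bars and red, blue and grey for called higher, called lower and not called. Higher genes lie mostly in the mevalonate and lanosterol to cholesterol blocks, up to 0.84 for Tm7sf2, and Stard4 is lowest at -0.76.

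A further 71 genes of lipid metabolism outside the 35, in 4 lists, placed the members among their neighbours. Of these, 70 were tested, and 27 rose and 25 fell with both guides (74.3% called, against 66.5% of all genes). Their values are given under TMM scaling only, with the length trend left in. Among 14 other sterol enzymes and SREBP regulators 3 rose and 6 fell. The sterol reductase gene Lbr fell by 0.70 ± 0.10 (edgeR adjusted p = 2.85e-05), opposite to Tm7sf2, which encodes an enzyme of the same activity. The Lbr transcript is 3552 bases long and that of Tm7sf2 is 1479. Ggps1, which draws farnesyl diphosphate away to geranylgeranyl diphosphate, fell by 0.77 ± 0.11 (edgeR adjusted p = 5.38e-05). Among 12 genes of sterol uptake and trafficking 3 rose and 6 fell with both guides. The 6 include Scarb1, the gene of a lipoprotein receptor, which had 45.1 and 43.8 CPM with sgGal4-4, 83.8 and 87.3 with sgMiat-6, and 11.9 and 10.3 with sgMiat-96. Its guides went opposite ways, a log2 change of 0.94 ± 0.12 with sgMiat-6 and -2.001 ± 0.13 with sgMiat-96 (edgeR adjusted p = 2.05e-05 and 4.42e-08). The lipoprotein receptor gene Vldlr fell by 1.23 ± 0.10 (edgeR adjusted p = 2.11e-07), Npc2, which helps take cholesterol out of lysosomes, rose by 0.98 ± 0.11 (edgeR adjusted p = 3.69e-06), and the sterol-binding protein gene Osbp fell by 0.69 ± 0.10 (edgeR adjusted p = 5.3e-05).

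Among 22 tested genes of other fatty acid enzymes 10 rose and 7 fell. The long-chain acyl-CoA synthetase gene Acsl5 had 0.309 and 0.152 CPM with sgGal4-4, 6.94 and 8.42 with sgMiat-6, and 14.4 and 15.2 with sgMiat-96. It was near 0 in the controls and present in every Miat library, a log2 change of 5.50 ± 0.30 (edgeR adjusted p = 7.37e-09). Its relative Acsl3 fell by 1.20 ± 0.10 (edgeR adjusted p = 3.59e-07), from 306 and 322 CPM in the controls, and Mcat, of mitochondrial fatty acid synthesis, rose by 1.55 ± 0.13 (edgeR adjusted p = 4.87e-07). Among 22 genes of glycerolipid synthesis and storage 11 rose and 6 fell. Lpin3, a phosphatidate phosphatase gene, had 0.103 and 0.304 CPM with sgGal4-4, 5.95 and 6.84 with sgMiat-6, and 5.45 and 4.67 with sgMiat-96, a log2 change of 4.76 ± 0.37 (edgeR adjusted p = 1.83e-07). Gpam, the mitochondrial acyltransferase that starts glycerolipid synthesis, fell by 1.92 ± 0.21 (edgeR adjusted p = 4.19e-06), and Agpat4, an acyltransferase of lysophosphatidate, rose by 1.28 ± 0.14 (edgeR adjusted p = 3.88e-06).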

How the data were processed

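RNA-seq libraries were made from 6 samples, 2 for each of 3 guides, with a kit for mRNA after column isolation of RNA, per the labels' protocols. STAR and the builds GRCm38 and mm10 are named in the submitters' processing notes. For the counter, its handling of strand and the annotation release, no name was given in the sources used here. The deposited files hold, per the file headers, a count, an FPKM value and a TPM value that the authors gave each RefSeq transcript. Whole-number counts were tested. FPKM served to recover transcript lengths and zeros, and the deposited TPM values were not used.

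There were 33984 rows and 24063 symbols, of which 5261 had several rows. Since isoform rows share reads, the row with the highest total count was kept. A count of 1 stood beside an FPKM of 0 in 11223 rows of sgMiat-96 replicate 2, and was set to 0. Recovered lengths matched GENCODE M21 at a median ratio of 1.0 over 17239 rows.

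Counts were fitted in edgeR 4.0.16 (limma 3.58.1, R 4.3.3) with 3 groups and all 6 libraries, using filterByExpr by group, TMM factors and quasi-likelihood tests with 3 residual degrees of freedom. P-values were adjusted by Benjamini-Hochberg over 13220 genes, with calls under 0.05. The biological coefficient of variation was 0.0986. A SE is the absolute log2 fold change divided by the square root of F. The chi-square per gene between replicates was 4.12, 19.1 and 14.0 for sgGal4-4, sgMiat-6 and sgMiat-96, where sampling noise gives 1. A floor of 3 counts in a library is 0.149 to 0.173 CPM. The length trend was taken out as a loess offset (span 0.3) per library. Scripts were tested on simulated data. DESeq2 1.42.0 was an alternative, and the closing section gives the others. Shared 50-base stretches and exon overlaps come from GENCODE M21 on GRCm38, and promoters from RefSeq on GRCm38.p6. Python 3.11.15 with pandas 2.3.3, scipy 1.17.1 and matplotlib 3.10.9 made tables and plots.

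The members and all gene lists were chosen with earlier results of these data known. Members called with both guides are given by pathway step. From each other list up to 3 called genes were named, those of lowest adjusted p, and Scarb1 was chosen after its values were seen. Some items are not reported here.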

Additional observations from a re-analysis of the deposited data

Results flagged for a closer look

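For 16 members the change against sgGal4-4 differed between the 2 Miat guides in a direct test of sgMiat-96 against sgMiat-6 (edgeR, adjusted over 13220 genes, of which 36.7% were called). The members higher with sgMiat-96, by log2 difference, were Tm7sf2 at 0.84 ± 0.14, Mvd at 0.82 ± 0.14, Fdps at 0.76 ± 0.11, Mvk at 0.74 ± 0.12, Ebp at 0.62 ± 0.15, Pmvk at 0.60 ± 0.13, Fdft1 at 0.60 ± 0.10, Nsdhl at 0.49 ± 0.11, Dhcr7 at 0.48 ± 0.10, Acat2 at 0.47 ± 0.10, Msmo1 at 0.43 ± 0.11 and Insig1 at 0.37 ± 0.11 (SE). All 12 have both sgMiat-96 libraries above both sgMiat-6 libraries, but the calls rest on these same libraries, so this is no separate support. Of all tested genes, 69.8% did not overlap between the guides. The members lower with sgMiat-96 were Stard4 at -0.76 ± 0.22, Idi1 at -0.52 ± 0.15, Acaca at -0.47 ± 0.14 and Scd1 at -0.36 ± 0.11.

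The 12 higher members had a median transcript length of 1844 bases and the 4 lower ones 3911. With the length trend taken out, Msmo1, Pmvk, Acaca and Scd1 were not called, with log2 differences of 0.23, 0.25, 0.045 and -0.11. Of the 12 higher calls, 6 were kept without sgMiat-96 replicate 1 (Tm7sf2, Mvd, Fdps, Mvk, Pmvk and Fdft1).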

How the results depend on the processing

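Over 14 to 15 alternatives each, the log2 changes of the 34 members in the 4 comparisons gave 2006 values. Of these 1876 kept their side of the threshold, among them 66 that were not called in either fit and changed sign. A further 84 kept direction but lost the call, 37 gained a call and 9 reversed. All 9 reversals came with the length trend taken out: with both guides Fasn to 0.048, Elovl6 to 0.10 and Acly to 0.22, with sgMiat-96 Fasn to 0.36, Elovl6 to 0.15, Acly to 0.21 and Msmo1 to -0.056, and between guides Abca1 to 0.49 and Acaca to 0.045. The cause was not tested. In that setting the calls between guides numbered 3193 genes, with 2 members lower.

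Leaving out each library in turn gave 6986 to 9246 called genes with both guides, 5194 to 7299 with sgMiat-6, 7548 to 9519 with sgMiat-96 and 1124 to 5740 between guides. Members called higher ranged from 9 to 12, 5 to 9, 12 to 14 and 6 to 13 in the same order, and members called lower from 10 to 15, 9 to 14, 10 to 15 and 0 to 6. A fit with 1 library left in a group takes the spread from the other groups.

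The replicate block changed no count by more than 1.5 times: 8341 genes with both guides, with 11 members higher and 15 lower, and 4043 genes between guides. The replicate deviations correlated at 0.07 for sgGal4-4 with sgMiat-6, -0.18 for sgGal4-4 with sgMiat-96 and -0.37 between the Miat guides. No label says that replicate numbers pair samples. The block tried only the pairing by number, so it cannot tell whether libraries were handled together in another way. With the block 9 members were higher and 12 lower with sgMiat-6, and 13 and 13 with sgMiat-96. DESeq2, RLE factors, counts as deposited, the longest transcript row and no filter on low counts gave 11 members higher and 14 or 15 lower with both guides. A fit on the compared groups alone uses all libraries for both guides and gave no separate value there. With 2 libraries per group, the calls with both guides for Srebf1, Insig2, Mvd, Hsd17b7, Sc5d, Stard4, Elovl6 and Fads1 depended on single libraries, and the other 18 were kept without any of the 6.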
